A study of Homo sapiens with 4 samples.

Results

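The RGS genes encode regulators of G protein signalling, and 10 of them are described here in KGN cells, an established human cell line from an ovarian granulosa tumour. The members were chosen by name: RGS2, RGS3, RGS4, RGS5, RGS7, RGS10, RGS12, RGS16, RGS19 and RGS20, out of 19775 genes with a probe set of a single symbol. They were read by 35 probe sets, groups of short probes for 1 transcript on an Affymetrix array. Of the probe sets, 14 were above the floor of 62.6, the median intensity of the whole table, on all 4 arrays, and 11 were below it on all 4. All 10 genes had a representative probe set above the floor on at least 1 array, and 8 had it above on all 4. RGS7 was above on 2 arrays and RGS16 on 1, so RGS16 was compared only because of the array on which it was high.

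A receptor that binds its hormone loads the alpha subunit of a G protein with GTP, and signalling lasts until that GTP is cut. RGS proteins share a domain that speeds the cut and so shortens the signal. The members fall into subfamilies: RGS2, RGS3, RGS4, RGS5 and RGS16 are mostly small proteins that act on the Gi and Gq classes, RGS7 works bound to the beta subunit GNB5, RGS10 and RGS12 act on Gi, and RGS19 and RGS20 act on Gi and Gz. In granulosa cells gonadotropin receptors act through Gs and cyclic AMP, and RGS2 is known from other cells as a cyclic AMP-inducible gene that preferentially restrains Gq. 8Br-cAMP enters cells and acts in place of cyclic AMP, downstream of receptor and G protein.

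The 4 groups held 1 array each. The siNC group received a control siRNA at 10 nM, and the siYT group received siRNAs against YAP and TAZ, transcriptional co-activators of the Hippo pathway, at 5 nM each. The siNC+8Br-cAMP and siYT+8Br-cAMP groups had the same transfections and 0.5 mM 8Br-cAMP in the medium from 48 h, and all cells were harvested 24 h after that change of medium. With 1 array in a group no difference has a replicate check, no p-value comes from a comparison of 2 arrays, and the number of arrays limits the precision. To gauge measurement error, log2 differences were compared between probe sets of the same gene. Their SD, called the yardstick SD here, came from 7501 bright probe sets of 3019 genes, each above 4 times the floor on every array. It was 0.39 for knockdown without 8Br-cAMP, 0.54 for knockdown with it, 0.37 for 8Br-cAMP with control siRNA and 0.53 for 8Br-cAMP after knockdown. The yardstick SD leaves out variation between cultures. RGS2, RGS7, RGS12, RGS16, RGS19 and RGS20 read below that level on at least 1 array. For such dimmer readings the yardstick SD can be too small.

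The arrays had medians of 56.9 to 66.3. YAP1 was 3.80-fold and 3.38-fold lower, and WWTR1, which encodes TAZ, 5.22-fold and 6.11-fold lower, in siYT than in siNC without and with 8Br-cAMP. The granulosa transcription factors FOXL2, GATA4 and WT1 were above the floor on all arrays, while NR5A1 and the hormone receptors FSHR and AMHR2 were below it on all. Of 14 markers of theca, epithelial, endothelial, leukocyte and oocyte cells, 2 (INSL3 and PECAM1) were above the floor on all 4 arrays and 9 were below it on all 4.

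RGS2 and RGS4 were the members at least 2-fold higher in siYT than in siNC, and both were lowest on the siNC array. Their promoter windows are therefore shown first. RefSeq windows (GRCh38.p14) run from 250 bases before to 50 after an annotated start, and 9 of the members had 26 of them. RGS20 had none here. Capitals mark TGACG, the core of the cyclic AMP response element, on either strand, found here as CGTCA. The RGS2 window is chr1:192808789-192809088 on the plus strand, with the motif beginning 181 bases before the start. The RGS4 window is chr1:163069111-163069410 on the plus strand, 1 of 4 for that gene, with the motif beginning 139 bases before the start.
RGS2: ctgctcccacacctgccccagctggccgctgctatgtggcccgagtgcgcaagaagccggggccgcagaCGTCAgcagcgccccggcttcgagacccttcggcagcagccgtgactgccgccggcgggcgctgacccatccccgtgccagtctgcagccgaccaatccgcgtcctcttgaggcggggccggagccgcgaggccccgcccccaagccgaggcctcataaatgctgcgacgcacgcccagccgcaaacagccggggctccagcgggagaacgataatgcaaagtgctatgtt
RGS4: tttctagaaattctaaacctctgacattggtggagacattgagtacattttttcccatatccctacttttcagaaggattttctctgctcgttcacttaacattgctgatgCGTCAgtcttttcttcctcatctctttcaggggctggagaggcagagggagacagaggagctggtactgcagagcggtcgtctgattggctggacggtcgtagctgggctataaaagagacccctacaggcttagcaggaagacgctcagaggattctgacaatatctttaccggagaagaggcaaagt

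Another RGS4 window overlaps the one shown and holds the same site, so that site enters the count below in both windows. The remaining RGS4 windows do not hold TGACG on either strand. In all, 5 of the 26 windows, in RGS2, RGS3, RGS4 and RGS12, held TGACG on either strand, against 24.6% of 35116 windows of all genes. The full element TGACGTCA, which contains that core on both strands, was in 0 of the 26 and in 1.85% of all windows. CATTCC, the core bound by the TEAD partners of YAP and TAZ, was in 1 window of RGS5 and in 14.0% of all windows. TGANTCA, an AP-1 motif, was in 1 window of RGS7 and in 7.71% of all windows. The shares describe letters in these windows, not binding.

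RGS2, the Gq-selective member, had 1 probe set, and its intensity was 134 under siNC, 496 under siNC+8Br-cAMP, 813 under siYT and 700.5 under siYT+8Br-cAMP. The siNC array stood low and the other 3 lay within 496 to 813. Knockdown without 8Br-cAMP was thus 6.06-fold higher (log2 2.60), and 8Br-cAMP with control siRNA was 3.70-fold higher (log2 1.89). Both of these comparisons subtract the same siNC array. Once either agent was present, the other made less difference: knockdown with 8Br-cAMP read 1.41-fold higher (log2 0.50, within the yardstick SD of 0.54), and 8Br-cAMP after knockdown read log2 -0.21. Both agents together were 5.22-fold above siNC. The difference of differences, knockdown with minus knockdown without 8Br-cAMP, was -2.10, against a yardstick SD of 0.60.

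RGS4, a brake on Gi and Gq that is itself a short-lived protein, had 3 probe sets, all far above the floor on every array. The representative one read 6787 under siNC, 13567 under siNC+8Br-cAMP, 16211 under siYT and 22036 under siYT+8Br-cAMP. Here too siNC was lowest, and the array with both agents was highest. The second probe set read 1972, 5046, 5353 and 5323 in the same array order, while the third gave 1967, 4699, 4821 and 5308. In both of these the 3 treated arrays lay close together. Knockdown without 8Br-cAMP was 2.39-fold, 2.71-fold and 2.45-fold higher by the 3 probe sets, and 8Br-cAMP with control siRNA was 1.999-fold, 2.56-fold and 2.39-fold higher. The first of these falls just short of the 2-fold line, so the representative probe set was not counted there. In the presence of the other agent the differences shrank, to 1.62-fold, 1.05-fold and 1.13-fold for knockdown with 8Br-cAMP. For 8Br-cAMP after knockdown the representative probe set was 1.36-fold higher and the others differed by log2 -0.01 and 0.14. The difference of differences was -0.56, -1.36 and -1.12, the first within the yardstick SD.

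**Figure D1:**
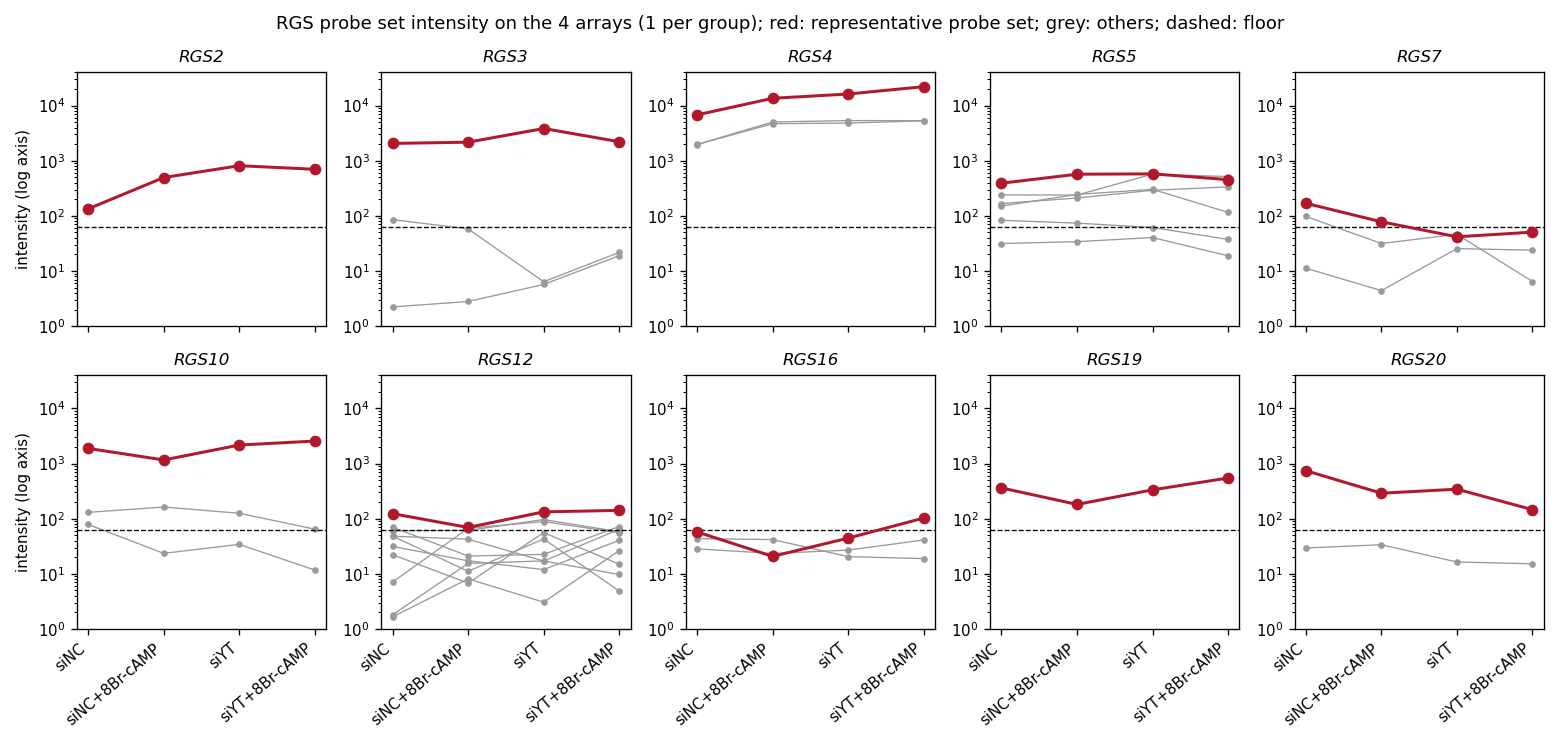
Intensity (log axis) of every probe set of the 10 RGS genes on the 4 arrays, 1 array per group; red is the representative probe set, grey the others, and the dashed line the floor of 62.6. RGS2 and all 3 RGS4 probe sets are lowest in siNC, RGS20 is highest there, and the representative probe sets of RGS10, RGS12 and RGS19 are lowest in siNC+8Br-cAMP.

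RGS5, known from pericytes and vascular smooth muscle, lies next to RGS4 on chromosome 1, and its 6 probe sets disagreed. The representative one read 392 under siNC, 569.9 under siNC+8Br-cAMP, 578 under siYT and 455 under siYT+8Br-cAMP, which gives log2 differences of 0.56 and -0.33 for knockdown without and with 8Br-cAMP. A second read 240.3, 239, 572 and 517 in the same order. By that one knockdown was 2.38-fold and 2.17-fold higher, and 8Br-cAMP made differences of -0.01 and -0.15. Another read 151, 245, 303 and 116, so that knockdown was 2.01-fold higher without and 2.11-fold lower with 8Br-cAMP. The remaining well-measured one read 167, 211, 292 and 336. Of the 2 dim ones, 1 was below the floor on all arrays and the other read at most 83.2. The 4 well-measured probe sets thus all read higher in siYT than in siNC, by 1.48-fold to 2.38-fold, and split on knockdown with 8Br-cAMP. Which transcripts each probe set reads was not examined.

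RGS3, a larger member of the same subfamily, read 2061 under siNC, 2172 under siNC+8Br-cAMP, 3841 under siYT and 2214 under siYT+8Br-cAMP. The siYT array alone stood apart. Knockdown without 8Br-cAMP was 1.86-fold higher (log2 0.90), and with 8Br-cAMP it differed by log2 0.03. After knockdown 8Br-cAMP was 1.73-fold lower. None of these reached 2-fold, and the other RGS3 probe sets read at most 85.6. RGS16 stayed near or below the floor, at 57.7, 20.8, 44.4 and 103 on the 4 arrays in the same order. Its other probe sets were below the floor throughout, and its level was not measured well enough to order the arrays.

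RGS20, a Gz- and Gi-directed member, was the only one of the 10 that was lower in all 4 comparisons. It read 743 under siNC, 290.1 under siNC+8Br-cAMP, 344 under siYT and 146 under siYT+8Br-cAMP. The untreated control was highest and the array with both agents lowest, 5.09-fold apart. The reading was 2.16-fold lower after knockdown without 8Br-cAMP and 1.99-fold lower in its presence (log2 -1.11 and -0.99). For 8Br-cAMP the reading was 2.56-fold lower with control siRNA and 2.35-fold lower after knockdown (log2 -1.36 and -1.24). The difference of differences was 0.12, small against its yardstick SD of 0.60. The other RGS20 probe set was below the floor on all arrays, so these values rest on 1 probe set. RGS7, the GNB5-bound member, was likewise highest in siNC, at 169. It read 78.1 under siNC+8Br-cAMP. Both knockdown arrays, at 41.8 under siYT and 50.7 under siYT+8Br-cAMP, lay below the floor. Knockdown without 8Br-cAMP therefore read at least 2.70-fold lower, knockdown with 8Br-cAMP at least 1.25-fold lower, and 8Br-cAMP with control siRNA 2.17-fold lower. A second RGS7 probe set read 97.7 in siNC and was below the floor on the other 3 arrays. The third was below it on all 4.

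The representative probe sets of RGS10, RGS12 and RGS19 shared a pattern in which siNC+8Br-cAMP was lowest. That array was also lowest for RGS14 and RGS17, which are not among the chosen genes, at 174 and 112. RGS19 read 362 under siNC, 182 under siNC+8Br-cAMP, 334 under siYT and 547 under siYT+8Br-cAMP on its 1 probe set. Knockdown differed by log2 -0.12 without 8Br-cAMP and was 3.01-fold higher (log2 1.59) with it. 8Br-cAMP was 1.99-fold lower in control cells and 1.64-fold higher in knockdown cells, and the difference of differences was 1.71. RGS10 read 1885, 1164, 2168 and 2563 on the arrays in the same order. Its knockdown difference was 0.20 without and 1.14 (2.20-fold higher) with 8Br-cAMP. The other RGS10 probe set seen on all arrays, dimmer at 131, 163, 126 and 64.8, went the other way and gave 2.52-fold lower for knockdown with 8Br-cAMP. The third was above the floor in siNC alone, at 78.7. The RGS10 direction under 8Br-cAMP therefore depends on the probe set. RGS12, a large scaffold protein, read 124, 69.5, 133 and 142, which is 2.04-fold higher for knockdown with 8Br-cAMP from a reading close to the floor. Of its 9 other probe sets, 5 were below the floor on all arrays and the rest read at most 96.8.

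Knockdown with 8Br-cAMP, 8Br-cAMP after knockdown, both agents against siNC and the difference of differences all use the siYT+8Br-cAMP array. On it the ratio of 3' to 5' signal, a sign of RNA integrity, was 1.35 for ACTB and 1.13 for GAPDH, while the other 3 arrays ranged from 1.07 to 1.14 and from 0.89 to 0.96. The yardstick SD was also larger in the knockdown and 8Br-cAMP comparisons that use this array (0.54 and 0.53) than in those that do not (0.39 and 0.37). The part of this array was not tested in any value that uses it, for the members or for the listed genes below. Such values include those of RGS10, RGS12 and RGS19 and the differences of differences of RGS2, RGS7 and RGS19. They also include RGS20 for knockdown with 8Br-cAMP, for 8Br-cAMP after knockdown and for both agents.

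**Figure D2:**
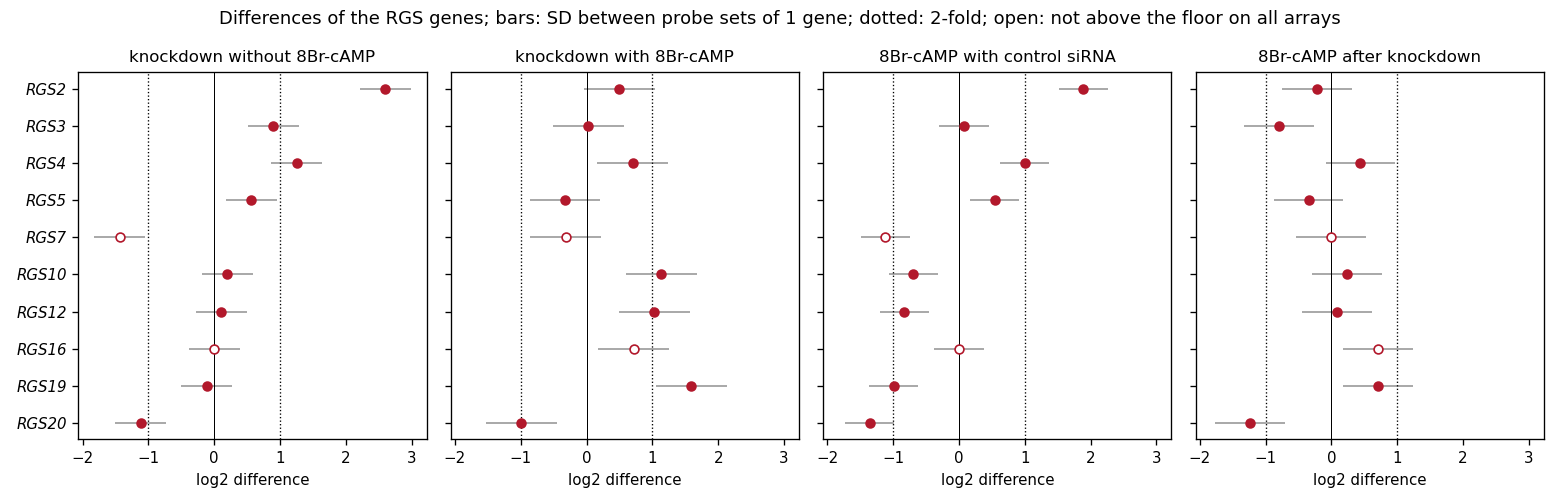
Log2 differences of the representative probe set of each RGS gene in the 4 comparisons. Bars are the SD between bright probe sets of 1 gene (0.39, 0.54, 0.37 and 0.53 from left to right). Dotted lines mark 2-fold, and open points are genes not above the floor on all arrays. RGS20 lies to the left in all 4 panels (-1.11, -0.99, -1.36 and -1.24), and RGS2 lies far to the right in the panels that subtract siNC (2.60 and 1.89).

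Counted at 2-fold, 2 of the 10 genes were higher (RGS2 and RGS4) and 2 lower (RGS7 and RGS20) in knockdown without 8Br-cAMP, where 7.30% of 14427 genes were called higher and 6.05% lower. RGS7 was above the floor only on the control siRNA arrays, so after that filter it could only read lower on knockdown. The same holds for RGS7 in the fit below. In knockdown with 8Br-cAMP 3 were higher (RGS10, RGS12 and RGS19) and 0 lower, against 6.74% and 9.48% of all genes. For 8Br-cAMP with control siRNA 1 was higher (RGS2) and 2 were lower (RGS7 and RGS20), against 4.34% and 5.22%, and after knockdown 0 were higher and 1 was lower (RGS20), against 5.00% and 9.88%. For the difference of differences 2 were higher (RGS7 and RGS19) and 1 was lower (RGS2), against 5.39% and 9.56%, and the RGS7 value of 1.12 rests on 2 arrays at the floor. With 10 members, 1 gene is 10% of them, so these counts are of a few genes and say little about the family as a whole. By representative probe sets none was at least 2-fold changed the same way in both knockdown comparisons, which share no array. RGS20 alone was so in both 8Br-cAMP comparisons. In knockdown with 8Br-cAMP RGS20 fell just short of 2-fold, at 1.99-fold lower. Another RGS5 probe set was 2.38-fold and 2.17-fold higher in the knockdown comparisons. Of all genes, 2.38% passed that line upward and 2.81% downward in both knockdown comparisons, and 1.46% and 2.08% did so in both 8Br-cAMP comparisons. Counts of 0 and 1 in 10 are too small to be read against such shares. The members' median difference was 0.16 and 0.60 for knockdown without and with 8Br-cAMP and -0.35 and 0.04 for 8Br-cAMP with control siRNA and after knockdown, beside 0.00 over all genes in each. These medians take in RGS16, above the floor only on siYT+8Br-cAMP, so that it could only raise the 0.60 and the 0.04. They also take in RGS7, at the floor on both knockdown arrays, so that it could only lower the 0.16 and the 0.60. RGS10 is in them too, and its probe sets differ in sign for knockdown with 8Br-cAMP.

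An additive limma fit was run across all 14427 genes, with 1 residual degree of freedom. Its error is each gene's departure from additivity, moderated by limma towards a value estimated from all genes. The fit called 0 of the 10 genes at a Benjamini-Hochberg adjusted p under 0.05 for either agent. Its smallest adjusted p among them was RGS20's. The RGS20 coefficient was -1.05 ± 0.27 (SE) for knockdown, with an adjusted p of 0.12 in limma, and -1.30 ± 0.27 for 8Br-cAMP, with an adjusted p of 0.13. For RGS4 the knockdown coefficient was 0.98 ± 0.29, with an adjusted p of 0.15 in limma, and for RGS2 it was 1.55 ± 0.51, with an adjusted p of 0.18. Over all genes the fit called 0.658% higher and 1.12% lower for knockdown, and 0.111% higher and 0.0277% lower for 8Br-cAMP. At an unadjusted p under 0.05 it had 2 members higher (RGS2 and RGS4) and 2 lower (RGS7 and RGS20) for knockdown, where 9.83% and 9.99% of all genes were, and 1 higher (RGS4) and 1 lower (RGS20) for 8Br-cAMP, where 6.27% and 9.35% were.

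**Figure D3:**
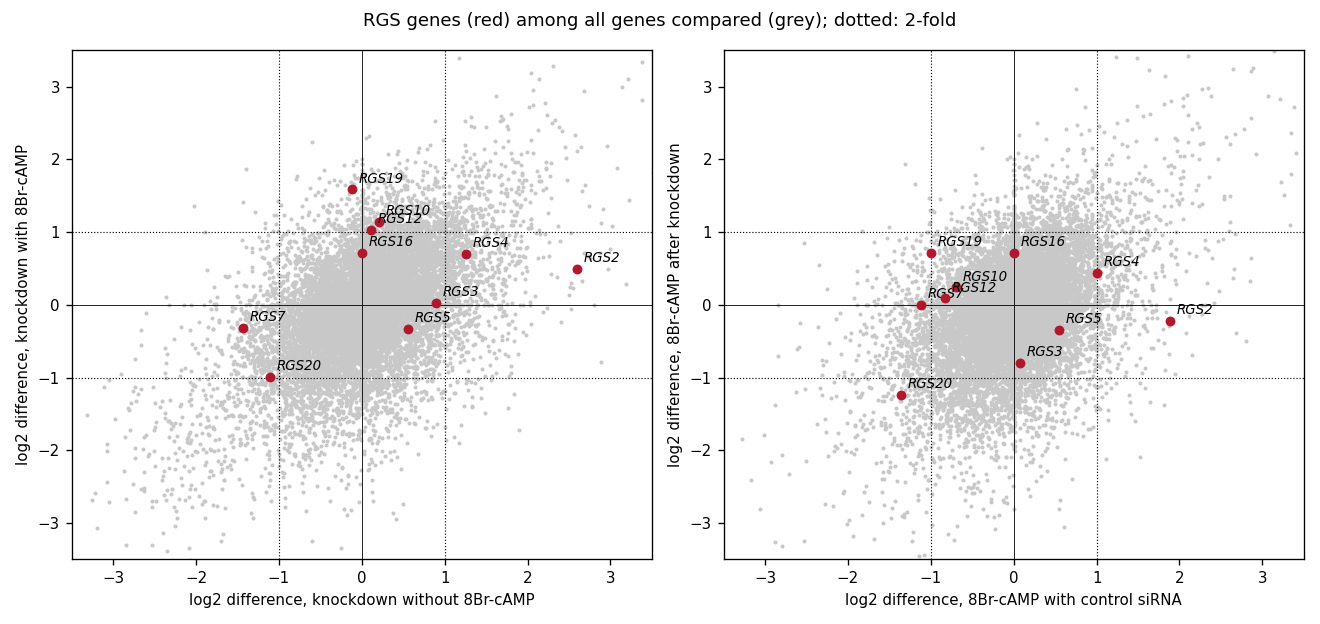
Log2 differences of the RGS genes (red, labelled) among all 14427 genes compared (grey); left, knockdown without against with 8Br-cAMP; right, 8Br-cAMP with control siRNA against after knockdown; dotted lines mark 2-fold and 35 genes lie beyond the axes. Points are representative probe sets. In the left panel no member is in a corner beyond 2-fold on both axes, and in the right panel RGS20 is the only one.

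Some genes followed the members' patterns closely over the 4 arrays, measured as the Euclidean distance between log2 values centred on each gene's mean, among 10794 other genes above the floor on all arrays. Nearest to RGS2 was PRKACA, a catalytic subunit of protein kinase A (distance 0.27), at 117 under siNC, 356 under siNC+8Br-cAMP, 748 under siYT and 586 under siYT+8Br-cAMP. PDGFRL and RARRES2 followed (0.36 and 0.37). Nearest to RGS4 were TMEM248 (0.03), DUSP23 (0.11) and the cytokine IL1B (0.12). RGS19 was followed by NAIF1 (0.07) and by PLCB4, a phospholipase C that Gq switches on (0.11), with TTN next (0.16). RGS20 was nearest to PROM1 (0.14), FAM120AOS (0.17) and PRXL2C (0.18). For RGS10 these were HDAC10, SH2B2 and COL11A1 (0.09 each), and for RGS12 FBRSL1 (0.05), MDC1 and CCDC174 (0.06 each). With 4 arrays such likeness is a description.

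The remaining RGS genes were mostly not measured. Of 11 others, 10 had a probe set, and 4 were above the floor on any array: RGS9, RGS11, RGS14 and RGS17. RGS17, another Gz-directed member, read 158 under siNC, 112 under siNC+8Br-cAMP, 370.5 under siYT and 189 under siYT+8Br-cAMP. It was thus 2.34-fold higher after knockdown without and 1.69-fold higher with 8Br-cAMP, where RGS20 was lower in both. RGS14, a Gi scaffold related to RGS12, read 298, 174, 361 and 239 in that array order, staying under 2-fold throughout. RGS9 was above the floor on 2 arrays, at 73.0 in siNC+8Br-cAMP and 220.2 in siYT, and RGS11 on 2, at 75.7 in siNC and 82.5 in siNC+8Br-cAMP.

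Of 13 RGS partners and other RGS-domain proteins 10 were compared, and 0 were at least 2-fold changed in the same direction in both knockdown or both 8Br-cAMP comparisons. SNX13, a sorting nexin with an RGS domain, read 2041 under siNC, 2336 under siNC+8Br-cAMP, 3179 under siYT and 5134 under siYT+8Br-cAMP. ARHGEF12, an RGS-domain activator of RhoA, was 2.64-fold higher with 8Br-cAMP after knockdown (4133 to 10902) and 1.60-fold higher with control siRNA. AXIN2, a scaffold and target of Wnt signalling, was 2.76-fold higher with 8Br-cAMP after knockdown and at least 1.998-fold higher with control siRNA. AXIN1 went 2.02-fold lower without and at least 2.02-fold higher with 8Br-cAMP on knockdown, from readings of 35.0 to 146.

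Of 13 G protein alpha subunits listed, whether or not RGS proteins act on them, 10 were compared. GNAZ, the alpha subunit of Gz, was 2.17-fold and 2.15-fold higher after knockdown without and with 8Br-cAMP (211 and 325 with control siRNA, 457 and 698 after knockdown). It was the only alpha subunit past 2-fold the same way in both. GNA12, which couples receptors to RhoA, was 2.37-fold and 2.15-fold lower with 8Br-cAMP (3313 to 1399 with control siRNA, 3138 to 1461 after knockdown). GNAL, a relative of Gs, was 2.36-fold higher with 8Br-cAMP with control siRNA and at least 10.6-fold higher after knockdown, where siYT was below the floor at 58.7. GNAI1, a Gi alpha subunit, read 3532, 6566, 4135 and 12031 on the arrays in the same order, 1.86-fold and 2.91-fold higher with 8Br-cAMP. The alpha subunit medians were -0.07 and 0.47 for knockdown and -0.21 and 0.39 for 8Br-cAMP. Of 11 beta and gamma subunits, GNG10 was 2.82-fold and 3.39-fold lower with 8Br-cAMP, the only one past 2-fold the same way in both. GNB4 was 2.35-fold and 1.67-fold lower after knockdown, GNG2 2.23-fold lower with 8Br-cAMP after knockdown, and GNG7 at least 3.22-fold higher after knockdown without 8Br-cAMP.

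Of 10 other regulators of receptors and G proteins, GRK3, a receptor kinase, was 2.08-fold and 2.21-fold higher after knockdown, from 88.4 in siNC to 184 in siYT and from 99.1 to 219 with 8Br-cAMP. GRK4 was 1.95-fold and at least 1.55-fold higher. GPSM3 was 2.31-fold higher in knockdown without 8Br-cAMP, from a siNC reading of 74.6, and below the floor on both 8Br-cAMP arrays. ARRB1, beta-arrestin, was 2.04-fold lower for knockdown with 8Br-cAMP. Downstream of Gq, 11 genes were compared and their medians were 0.37 and 0.47 for knockdown without and with 8Br-cAMP. The 0.47 is the value of PLCB2, a lower bound. PLCB2 was compared only because of siYT+8Br-cAMP, at 86.8, the 1 array on which it was above the floor. The calcium channel ITPR1 was 2.01-fold and 2.58-fold higher after knockdown (1119 to 2246 and 1002 to 2590.0). PRKCA was 1.49-fold and 2.71-fold higher, PRKCD 2.31-fold and 1.81-fold higher, and PLCB4 1.09-fold lower and 3.22-fold higher.

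Of 18 receptors compared among 28 listed, OXTR, the Gq-coupled oxytocin receptor, was lower by log2 -2.84 and -3.31 after knockdown and by -1.31 and -1.77 with 8Br-cAMP. It read 3407 in siNC and 139 in siYT+8Br-cAMP, so that like RGS20 it was highest in the control and lowest with both agents. PTGER4, a Gs-coupled prostaglandin receptor, was 3.84-fold and 9.06-fold lower with 8Br-cAMP. S1PR1, a Gi-coupled receptor, was 2.48-fold and 2.03-fold lower after knockdown, and PTGER3 was 2.20-fold and at least 2.63-fold higher. S1PR3 was 5.76-fold higher under 8Br-cAMP in control cells and 1.87-fold higher in knockdown cells. LPAR2 was at least 3.48-fold higher after knockdown without 8Br-cAMP and at least 1.79-fold lower with it. The receptor medians were 0.67 and 0.26 for knockdown and -0.16 in both 8Br-cAMP comparisons, and 6 and 2 receptors were at least 2-fold higher after knockdown without and with 8Br-cAMP, with 2 lower in each, beside 7.30% and 6.74% of all genes higher and 6.05% and 9.48% lower.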

How the data were processed

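The platform was the Affymetrix HG-U133 Plus 2.0 array, with 4 arrays, 1 per group. The authors deposited 1 linear intensity for each probe set and array. The submitters' processing notes name RMA and Affymetrix Expression Console, and their versions are not given in the sources used here. Yet these intensities do not look like RMA output: they reach down to 0.081, and their 2% trimmed mean is 500.1 on each array. Their background correction and summary are therefore not settled, and low intensities are noisy. Values below 62.6, the table's median, were raised to that floor before taking log2. Folds involving a floored reading are written as at least that fold.

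For each of 19775 genes the probe set with the highest average floored log2 value was used, and 14427 genes with any reading over the floor were compared. Differences are log2 of the array named first minus the other, counted at 2-fold. An additive limma (3.58.1) fit used R 4.3.3, with Benjamini-Hochberg adjustment over all genes. The steps were tested on simulated data. Symbols came from the platform annotation: 41097 of 54675 probe sets had 1 symbol, 1801 several and 11777 none. Gene identifiers matched 41043 and changed 0 symbols.

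The members and 7 gene lists were chosen with earlier results of these data known. Named list genes are the 4 with the largest mean absolute difference, plus those past 2-fold the same way in both knockdown or both 8Br-cAMP comparisons. For likeness, the 3 nearest genes are given for members above the floor on all 4 arrays with a log2 range of at least 1. Alternatives were floors at the 25th and 75th percentile, the mean over probe sets, exclusion of probe sets with shared suffixes, cyclic loess, quantile normalization and a 1.5-fold threshold.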

Additional observations from a re-analysis of the deposited data

Results flagged for a closer look

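Several members had differences of opposite sign for the same agent in the 2 states of the other, on 1 array each, and the difference between the states was not tested. For 8Br-cAMP with control siRNA and after knockdown these were RGS2 (log2 1.89 and -0.21, a difference of differences of -2.10), RGS3 (0.08 and -0.79, -0.87), RGS5 (0.54 and -0.35, -0.89), RGS10 (-0.70 and 0.24, 0.94), RGS12 (-0.83 and 0.09, 0.92) and RGS19 (-0.99 and 0.71, 1.71). For knockdown without and with 8Br-cAMP they were RGS5 (0.56 and -0.33, -0.89) and RGS19 (-0.12 and 1.59, 1.71). The yardstick SD for a difference of differences was 0.60, and the smaller of each of these pairs was within the yardstick SD of its own comparison, except for RGS19 under 8Br-cAMP after knockdown (0.71 against 0.53). The signs of RGS5, RGS10, RGS12 and of RGS3 with control siRNA differ with the choice or averaging of probe sets.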

How the results depend on the processing

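Cyclic loess and quantile normalization left the same members called in the 4 comparisons between arrays and added RGS12 to those higher in the difference of differences. RGS2 and RGS4 remained at least 2-fold higher in knockdown without 8Br-cAMP under every alternative of floor, probe set, scaling and threshold. With the floor at the 75th percentile, 388.7, 7 members were compared, and the counts became 0 lower for knockdown without 8Br-cAMP, 1 higher for knockdown with it, 0 higher and 0 lower for 8Br-cAMP with control siRNA, 0 lower after knockdown, and 0 and 0 for the difference of differences. With the floor at the 25th percentile, 16.3, RGS16 was added as the 1 higher for 8Br-cAMP after knockdown, and also as higher for knockdown with 8Br-cAMP (4 higher) and the difference of differences (3 higher) and as lower for 8Br-cAMP with control siRNA (3 lower). Averaging all probe sets gave 0 lower for knockdown without and 1 higher for knockdown with 8Br-cAMP, 2 higher and 0 lower for 8Br-cAMP with control siRNA, 0 lower after knockdown, and 1 higher and 2 lower for the difference of differences. Without shared probe sets 8 members remained, with 1 lower for knockdown without 8Br-cAMP, 1 higher and 1 lower for knockdown with it, 1 lower for 8Br-cAMP with control siRNA, and 0 higher and 2 lower for the difference of differences. At 1.5-fold the counts were 5 higher and 1 lower for knockdown with 8Br-cAMP, 2 higher and 5 lower for 8Br-cAMP with control siRNA, 2 and 2 after knockdown, and 5 and 3 for the difference of differences. Over all genes, the share called in one direction was 4.34% to 9.88% at the main settings, 12.7% to 21.3% at 1.5-fold, 3.31% to 6.85% with the higher floor, 8.55% to 17.3% with the lower floor, 2.59% to 5.51% with the mean over probe sets and 4.69% to 10.8% without shared probe sets. The limma fit gave 0 members lower with 8Br-cAMP, where RGS20 was lower in both comparisons by size. RGS10 in knockdown with 8Br-cAMP turned from 1.14 to -0.064 with the mean over probe sets and to -1.33 without shared probe sets, since its probe sets differ in sign. Of 275 values of single members under the floor, probe set and scaling alternatives, 239 moved by less than the yardstick SD and 36 by at least that, and 16 changed sign: 9 of RGS10, 3 of RGS5, 3 of RGS12 and 1 of RGS3. Of the 16, 7 came with the mean over probe sets and 7 without shared probe sets. In the latter RGS10 also went from -0.70 to 0.32 for 8Br-cAMP with control siRNA, from 0.24 to -0.96 after knockdown and from 0.94 to -1.28 for the difference of differences, and RGS5 from -0.33 to 0.67 for knockdown with 8Br-cAMP. No paired analysis was possible because each group has 1 array. The additive limma fit is the one that compares each agent within both states of the other.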

Other observations

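The members RGS2, RGS4, RGS5, RGS7 and RGS16 lie on chromosome 1. In the order of protein-coding genes RGS4 and RGS5 are neighbours, RGS2 lies beside RGS13 and UCHL5, RGS16 beside RGS8, and RGS10 beside the receptor kinase gene GRK5. RGS13 and RGS8 were below the floor on all 4 arrays. UCHL5, a deubiquitinase next to RGS2, read 1299 under siNC, 1259 under siNC+8Br-cAMP, 969 under siYT and 567 under siYT+8Br-cAMP, so it was not low in siNC as RGS2 was. NUF2, a kinetochore gene next to RGS5, was lower after knockdown by log2 -2.29 without and -2.53 with 8Br-cAMP. The representative RGS5 probe set read 0.56 and -0.33 there, and the RGS5 probe sets disagreed. GRK5 read 1228, 1815, 1463 and 1449 on the arrays in the same order, with no 2-fold difference. In knockdown with 8Br-cAMP RGS10 was 2.20-fold higher by its representative probe set and 2.52-fold lower by the other one seen on all arrays. TCEA2, next to RGS19, was higher by 0.71 and 0.63 after knockdown without and with 8Br-cAMP, and RGS19 by -0.12 and 1.59.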
